A study of Mus musculus with 9 samples.

Results

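Kidneys of mice fed norursodeoxycholic acid (norUDCA) before their bile duct was ligated were compared with kidneys of sham-operated mice, to describe which genes still stood apart from sham after the feeding. The norUDCA-fed group (3 arrays) received the compound for 5 days and then had the common bile duct ligated (CBDL) for 3 weeks. The reference group (3 arrays) had a sham operation 3 weeks earlier. These are 6 of the 9 whole-transcript arrays of mouse kidney total RNA in the series. The other 3 arrays, from mice with 3 weeks of CBDL and no feeding, are given beside them. Arrays are lettered A, B and C within each group, in the order of the numbers in their titles. Every gene with a row that carries a single gene symbol was used, which gave 22180 genes, each read on its brightest such row. The labels give no strain, sex or age, and do not say whether norUDCA was given after the operation. No norUDCA-fed sham kidney is among the samples analysed here, so feeding and ligation cannot be told apart within the fed group. The labels do not say how the 3 samples of a group were obtained, so p-values measure only the spread among these samples.

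Ligation of the common bile duct stops bile from reaching the gut, and bile acids then rise in blood and are cleared in part by the kidney. Sustained cholestasis of this kind can injure the tubules, a condition known as cholemic nephropathy, with damaged collecting duct and proximal tubule epithelium, inflammation around the tubules and scarring. norUDCA, a bile acid whose side chain is a carbon shorter than that of ursodeoxycholic acid, is relatively hydrophilic and is excreted in part in urine. Injured tubule cells switch on genes such as Havcr1 and Lcn2, which are used as markers of kidney damage, while their transport genes are lost, and fibroblasts and macrophages add matrix and immune transcripts to the tissue.

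All signals are log2 RMA values, and every change is a difference of group means on that scale (1 unit is a 2-fold difference) with its standard error (SE). A gene is called, and said to rise or fall, when limma's two-sided p, adjusted by Benjamini-Hochberg over the 22180 genes, was under 0.05. With 3 arrays a group, the smallest two-sided p that an exact permutation test of a single value can give is 0.1. A level of 5.2 is used as the border of dim signal, since the dimmest 33.3% of genes had a mean below it. The tissue label was checked against nephron genes. Umod of the thick ascending limb (12.47 to 12.87 over the sham and norUDCA-fed arrays), Slc34a1 and Lrp2 of the proximal tubule (12.54 or higher on each of these 6 arrays) and Aqp2 of the collecting duct (8.98 to 10.12) were all well above the dim level. Arrays of a group correlated at 0.986 to 0.995 over all genes. On the first principal component (58.26% of the variance) the norUDCA-fed arrays lay at -6.6 to 0.5, between the sham arrays at -42.2 to -34.1 and the CBDL arrays at 26.1 to 57.0. Sham B and CBDL B stood apart from the other 7 arrays on the second component (12.99%), at -34.5 and -22.9.

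In norUDCA-fed CBDL against sham, 706 genes were called, 3.18% of those tested. Of these, 403 rose (1.82%) and 303 fell (1.37%), and 194 changed at least 2-fold, 121 up and 73 down. At an unadjusted p under 0.05 there were 3626 of the 22180 genes, the share to set beside list counts at that level. The called changes had a median of 0.84 among the genes that rose and -0.73 among those that fell, with 0.38 as the smallest size, beside a median of -0.048 over all genes and a median SE of 0.136. In each of the 706 genes the 3 and 3 values did not overlap. Over all genes, 8.96% had their 3 norUDCA-fed values above the 3 sham values and 13.5% had them below. The count rests strongly on single arrays. It ran from 103 genes that rose and 53 that fell without norUDCA-fed C, and 136 and 70 without norUDCA-fed A, to 458 and 364 without CBDL B. Genes that rose made up 57.1% of the calls, but 70.7% without sham B, and 45.2% (417 up, 506 down) when each array was centred on its median. Against CBDL, with which the norUDCA-fed arrays are also set here, the same fit called 1509 genes (6.80%), 800 of them higher (3.61%) and 709 lower (3.20%) in norUDCA-fed CBDL. Both comparisons use the norUDCA-fed arrays, so their values are set side by side. Genes called in both are only listed, and no overlap is read as a result.

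**Figure D1:**
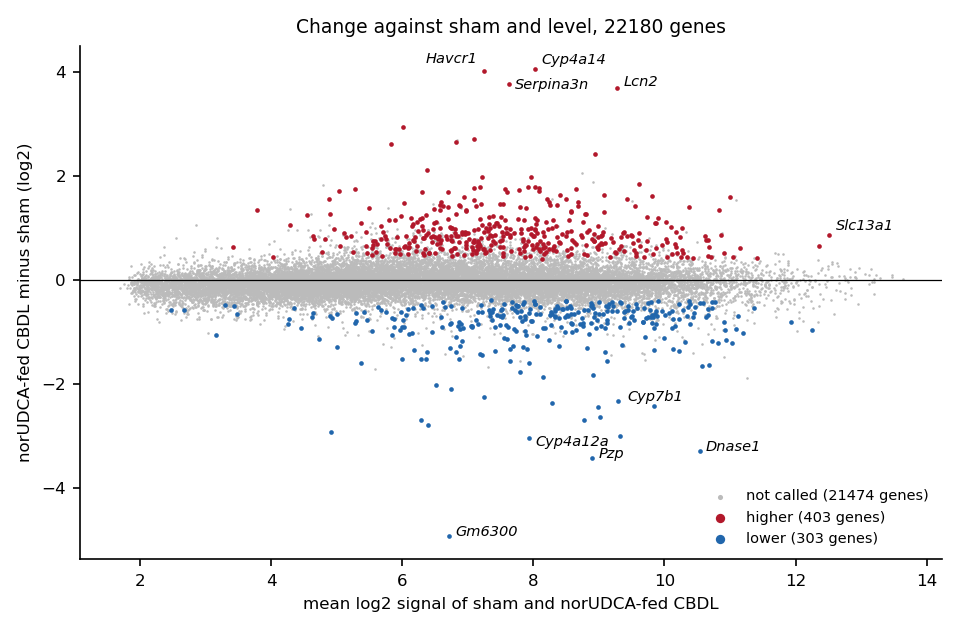
Each point is 1 of the 22180 genes, with the mean log2 signal of the sham and norUDCA-fed arrays on the horizontal axis and norUDCA-fed CBDL minus sham (log2) on the vertical axis. The 403 genes that rose are red, the 303 that fell are blue and the other genes are grey, and called genes appear across the range of signal.

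The largest increases were in a fatty acid hydroxylase, in markers of tubule injury and in acute phase and complement genes. Cyp4a14 (Entrez 13119), a microsomal omega-hydroxylase of fatty acids, read 6.04, 6.24 and 5.68 in sham and 10.21, 9.53 and 10.41 in norUDCA-fed CBDL. The groups were far apart, with a rise of 4.06 (SE 0.22, 16.7-fold, 95% interval 3.57 to 4.55, adjusted p = 6.1e-05). CBDL arrays read 8.77, 8.77 and 8.95, all below the fed arrays. Serpina3n, a secreted serine protease inhibitor of the acute phase, read 6.35, 5.12 and 5.74 in sham and 9.51, 9.30 and 9.71 in norUDCA-fed CBDL, a rise of 3.77 (SE 0.34, adjusted p = 0.00089). Its CBDL values of 11.17 to 12.27 were higher still.

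Others of the 15 largest increases are given here by gene. Cfi, the protease that inactivates complement C3b and C4b, rose by 2.72 (SE 0.23), with 8.62, 8.17 and 8.56 against 5.78, 5.81 and 5.62 in sham. CBDL arrays read 8.26 to 9.22 and overlapped the fed ones. Serpina10, an inhibitor of coagulation factor Xa, rose by 2.65, and Gpc3, a cell surface heparan sulfate proteoglycan, by 2.43. Il1f6, which encodes the cytokine IL-36 alpha, rose by 2.11 from values close to the dim level (4.99 to 5.75 in sham, 6.93 to 7.73 in fed). Aoc1, the diamine oxidase that breaks down histamine, rose by 1.99, Aldh1a2, which makes retinoic acid, by 1.98, C7 of the terminal complement pathway by 1.85, and Cpn1, the catalytic subunit of carboxypeptidase N, by 1.79. Their calls, and those of Cyp4a14 and Serpina3n, held with each of the 9 arrays left out in turn. The matrix glycoprotein Tnc rose by 1.78, but its sham values were spread (6.91, 6.70 and 5.28) and its call was lost without sham B, CBDL A or any of the 3 norUDCA-fed arrays (adjusted p up to 0.16).

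**Figure D2:**
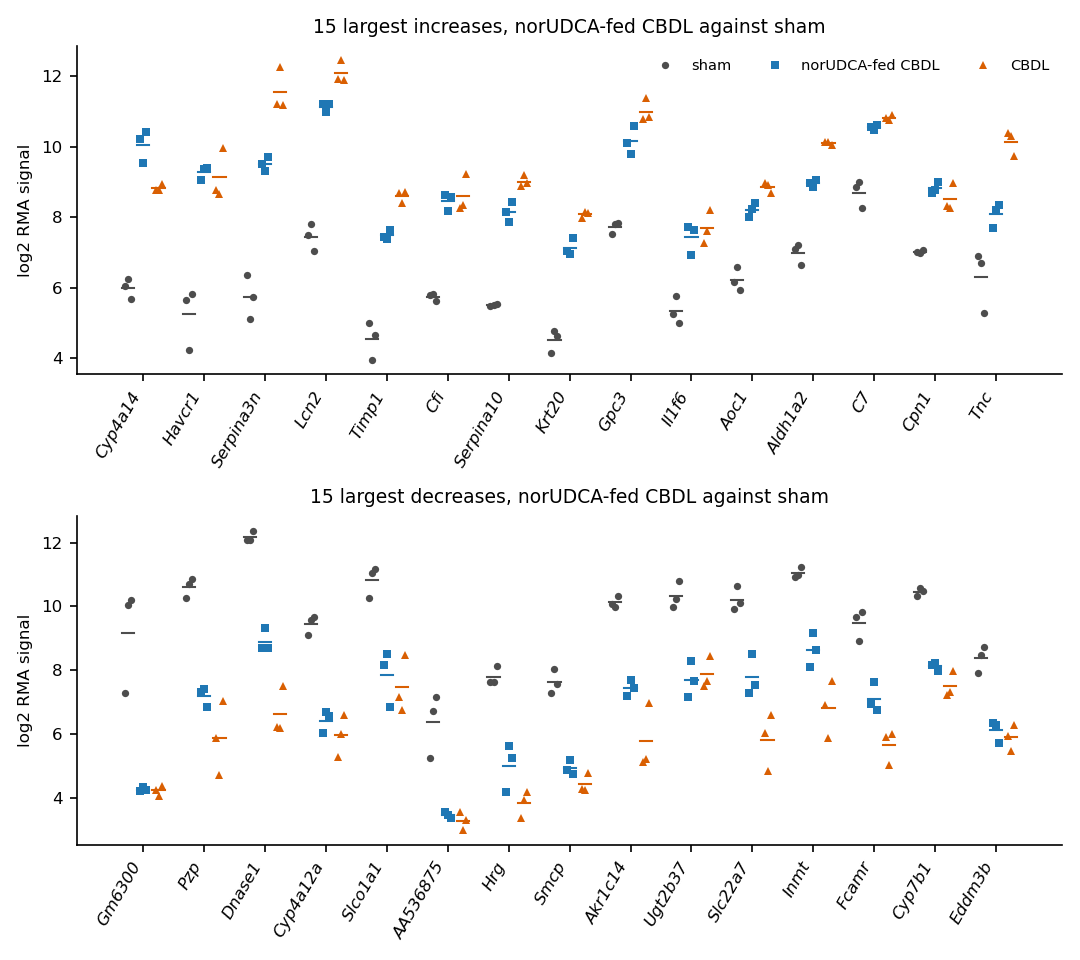
Signal (log2 RMA) of each array for the 15 genes that rose most and the 15 that fell most in norUDCA-fed CBDL against sham. Circles are sham, squares norUDCA-fed CBDL and triangles CBDL arrays, and short bars mark group means. The genes were picked among called genes without overlap, so squares and circles stand apart by selection. The wide spread of circles in Gm6300 (7.28 to 10.21) shows the uneven sham values.

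Markers of tubular injury and dedifferentiation were the list with the highest share of genes that rose. Of 29 measured members 18 rose, beside 1.82% of all genes, and none fell. A positive difference was seen in 28, and the median change was 0.86 beside -0.048 over all genes. In 26 members the 3 fed values lay above the 3 sham values, beside 8.96% of all genes. Havcr1 (Entrez 171283), which encodes KIM-1, the receptor by which injured proximal tubule cells take up dying cells, read 5.64, 4.23 and 5.83 in sham and 9.04, 9.36 and 9.40 in norUDCA-fed CBDL. The low sham B value widened the spread, and the rise was 4.03 (SE 0.43, 16.3-fold, adjusted p = 0.0020). CBDL read 8.77, 8.66 and 9.95, so the fed arrays lay inside the CBDL range, with a difference from CBDL of 0.14 (SE 0.43, adjusted p = 0.92). Lcn2, which encodes the iron-siderophore carrier NGAL, read 7.48, 7.79 and 7.03 in sham, and 11.19, 10.98 and 11.19 in norUDCA-fed CBDL. It rose by 3.69 (SE 0.20, 12.9-fold, adjusted p = 6.1e-05), and the CBDL arrays (11.92, 12.44 and 11.90) were all above the fed ones.

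Further members of the list rose by smaller amounts. Krt20, a keratin of urothelium and injured tubule, rose by 2.62 (SE 0.17), from 4.16, 4.76 and 4.61, all below the dim level, to 7.04, 6.95 and 7.41. Timp1, an inhibitor of matrix metalloproteinases, rose by 2.94 (SE 0.23), from 5.00, 3.96 and 4.67 to 7.42, 7.39 and 7.64. In both genes every sham value lay below the dim level, so these sizes are less well set than that of Lcn2. Vcam1, an adhesion molecule that appears on failing proximal tubule cells as well as endothelium, rose by 1.63 (SE 0.16), and the hyaluronan receptor Cd44 by 1.49 (SE 0.13). The calls of Havcr1, Lcn2, Krt20, Timp1, Vcam1 and Cd44 held with each array left out. Klf6, a transcription factor of stressed tubules, rose by 0.81, Plaur, the urokinase receptor, by 0.73 and the cell cycle inhibitor Cdkn1a by 1.04. These 3 lost their calls without sham C, norUDCA-fed A or norUDCA-fed C, Plaur and Cdkn1a also without sham A, and Cdkn1a without norUDCA-fed B (adjusted p up to 0.070, 0.11 and 0.13). The simple-epithelium keratin Krt8 differed by 0.61 (adjusted p = 0.14), and the integrin subunit Itgb6 by -0.33 (adjusted p = 0.29). The list count ran from 8 without sham C, norUDCA-fed A or norUDCA-fed C to 20 without CBDL B. The list's median was 0.86 against sham, -0.97 against CBDL, and 2.03 in CBDL against sham.

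Extracellular matrix genes rose in 16 of 31 measured members, beside 1.82% of all genes, and none fell. All 31 had a positive difference, and the median change was 0.79. Col1a1, the main chain of fibrillar type I collagen, read 7.85, 7.99 and 7.33 in sham and 9.25, 9.27 and 9.34 in norUDCA-fed CBDL. The fed arrays were tightly grouped and the rise was 1.56 (SE 0.17, adjusted p = 0.0024), with CBDL at 10.52 to 10.91. Its partner chain Col1a2 rose by 1.31, the collagen cross-linking enzyme Lox by 1.76, the calcification inhibitor Mgp by 1.60 and the membrane metalloproteinase Mmp14 by 1.44. All 5 calls held with each array left out. Sulf1, which trims sulfate from heparan sulfate chains and is in no list, read 6.14, 6.20 and 6.09 in sham and 7.48, 7.47 and 7.79 in norUDCA-fed CBDL, a rise of 1.44 (SE 0.12, adjusted p = 0.00078). Smaller rises in the basement membrane collagen Col15a1 (0.60) and in the matrix glycoprotein Fbln2 (0.82) lost their calls without any one of the norUDCA-fed arrays (adjusted p up to 0.11 and 0.20). Sparc (0.44, adjusted p = 0.11) and Col4a2 (0.54, adjusted p = 0.074), the brightest members without a call, were higher in all 3 fed arrays but did not pass. The list count was 6 without norUDCA-fed C, 7 without norUDCA-fed A, and 9 without sham C or norUDCA-fed B.

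Genes of myofibroblasts and TGF-beta signalling showed fewer calls than the matrix genes. Of 24 members 4 rose, beside 1.82% of all genes, with a median of 0.21. Tgfb1, the cytokine itself, read 8.11, 8.24 and 8.23 in sham and 8.98, 8.89 and 9.05 in norUDCA-fed CBDL. These narrow groups gave a rise of 0.78 (SE 0.09, adjusted p = 0.0029), and Tgfbi, a secreted protein induced by it, rose by 0.97 (SE 0.13). Both calls held with each array left out. The calcium-binding protein S100a6 rose by 1.21 and Tagln, an actin-binding protein of smooth muscle, by 0.84, and both calls were lost without sham C, norUDCA-fed A or norUDCA-fed C, and some other arrays (adjusted p up to 0.089 and 0.15). Acta2, smooth muscle actin, read 10.40 to 10.67 in fed against 9.94 to 10.54 in sham, with overlapping groups (0.38, adjusted p = 0.27). Pdgfra, a receptor of interstitial fibroblasts, differed by 0.81 (adjusted p = 0.056). The list count fell to 2 without sham C, norUDCA-fed A or norUDCA-fed C.

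Macrophage and myeloid genes rose in 14 of 25 measured members, beside 1.82% of all genes, none fell, and the median change was 0.86. Adgre1, a surface receptor used to identify mouse macrophages, read 5.94, 6.53 and 6.29 in sham and 7.21, 7.24 and 7.31 in norUDCA-fed CBDL. The rise was 1.0 (SE 0.17, adjusted p = 0.016) and its call was lost without sham C or any one norUDCA-fed array (adjusted p up to 0.083). The integrin subunit Itgam rose by 1.44, the complement component C1qc by 1.24, the lysosomal protein Laptm5 by 0.93 and the galectin Lgals3 by 0.69, and these 4 calls held with each array left out. Cd14, the co-receptor for bacterial lipopolysaccharide, rose by 1.27, and its adjusted p was 0.050 without norUDCA-fed C. Csf1r, the growth factor receptor of the macrophage lineage, did not share the pattern, with 9.18, 9.76 and 9.30 in sham and 9.22, 9.42 and 9.38 in fed (-0.07, 95% interval -0.42 to 0.28). The lysozyme gene Lyz2 differed by 1.13 with spread that left it uncalled (adjusted p = 0.33). Summed over the 25 genes, the log2 signal was 159.87 to 164.82 in sham, 181.56 to 183.61 in fed and 195.71 to 217.20 in CBDL. In whole tissue, more cells of a type and more RNA per cell cannot be told apart. The list count fell to 4 without norUDCA-fed C, and to 8 without sham C, norUDCA-fed A or norUDCA-fed B.

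Other leukocyte lists did not follow the macrophage genes. Among 13 neutrophil genes limma called none, 2 had an unadjusted p under 0.05, and 9 were dim in all groups. The summed neutrophil signal was 62.26 to 64.14 in sham and 62.84 to 65.50 in fed. Of 14 lymphocyte genes 1 had a positive difference, and the median change was -0.14. In 3 of the 14 all fed values lay below all sham values, beside 13.5% of all genes, and 5 were dim in all groups. The summed lymphocyte signal was 72.75 to 74.05 in sham, 69.79 to 71.31 in fed and 66.33 to 75.92 in CBDL. The 1 called, beside 1.37% of all genes that fell, was the B cell receptor component Cd79a, which fell by 0.58 (adjusted p = 0.043). Its call was lost without any sham or norUDCA-fed array or CBDL A (adjusted p up to 0.13). None of 8 genes for MHC class II presentation was called (1 at an unadjusted p under 0.05), and their median change was 0.015. Of 15 interferon-response genes none was called, and 1 had an unadjusted p under 0.05. Over all genes, 3626 of 22180 had an unadjusted p under 0.05.

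Chemokine, adhesion and NF-kB target genes rose in 6 of 25 members, beside 1.82% of all genes, with a median of 0.31. Cxcl1, a neutrophil-attracting chemokine, and Nfkbia, which encodes the inhibitor that holds NF-kB in the cytoplasm, are textbook targets of NF-kB. Their promoter windows are printed to show the recognition letters that the RefSeq sequence carries (GRCm38.p6, 250 bases upstream of the annotated start, given 5′ to 3′ on the gene's strand, with matches to the motif in capitals). The motif searched was GGANTTTCC on both strands, and 350 of 32851 such windows (1.07%) held it. The Cxcl1 window lies at chr5:90890995-90891244 on the plus strand and holds 1 match. The Nfkbia window lies at chr12:55492648-55492897 on the minus strand and holds 2 matches.
Cxcl1: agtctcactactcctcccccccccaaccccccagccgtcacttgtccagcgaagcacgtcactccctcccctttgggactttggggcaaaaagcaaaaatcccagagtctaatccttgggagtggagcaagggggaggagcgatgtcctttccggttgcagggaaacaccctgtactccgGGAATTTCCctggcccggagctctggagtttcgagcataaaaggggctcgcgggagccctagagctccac
Nfkbia: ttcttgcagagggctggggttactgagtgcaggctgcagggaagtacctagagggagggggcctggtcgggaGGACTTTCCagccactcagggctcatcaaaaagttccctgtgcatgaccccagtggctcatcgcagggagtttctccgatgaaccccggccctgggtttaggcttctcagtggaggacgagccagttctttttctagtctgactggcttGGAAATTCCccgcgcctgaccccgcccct

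The windows of 3 other called genes of the list, Selp, Tnf and Cx3cl1, held no match to these letters in that length, and Cxcl16 had no window in the table used. Cxcl1 read 5.67, 5.79 and 5.14 in sham and 6.91, 6.43 and 6.86 in norUDCA-fed CBDL, a rise of 1.2 (SE 0.19, adjusted p = 0.011). Nfkbia read 8.57, 8.63 and 8.81 in sham and 9.26, 9.12 and 9.63 in fed, a rise of 0.67 (SE 0.14, adjusted p = 0.039). Sham and fed values were apart in both genes. The cytokine gene Tnf rose by 0.52, the chemokine Cxcl16 by 0.50 and the endothelial and platelet adhesion protein Selp by 0.75. Each of these 5 calls was lost without norUDCA-fed A or norUDCA-fed C and, apart from that of Cxcl1, without further arrays (adjusted p up to 0.064 for Cxcl1 and 0.11 to 0.14 for the other 4). No member of the list was called without norUDCA-fed A, and none without norUDCA-fed C. Icam1, a leukocyte adhesion molecule, differed by 0.52 (adjusted p = 0.17).

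Complement and acute phase genes rose in 6 of 20 members, beside 1.82% of all genes, with a median of 0.54. C4b, a component of the classical and lectin pathways, read 7.05, 7.44 and 6.91 in sham and 8.94, 8.82 and 8.98 in norUDCA-fed CBDL, a rise of 1.78 (SE 0.14, adjusted p = 0.00057). CBDL read 9.08 to 9.26, and the difference from CBDL was -0.24 (SE 0.14). Cp, the copper-carrying ferroxidase ceruloplasmin, rose by 1.61 (SE 0.13), from 8.98 to 9.03 in sham to 10.70, 10.45 and 10.71. Both calls held with each array left out. The C1 inhibitor gene Serping1 rose by 0.84 and was not called without norUDCA-fed C (adjusted p = 0.067). Cfb, factor B of the alternative pathway, read 10.66 to 10.78 in sham and 10.62 to 10.73 in fed (-0.05, 95% interval -0.38 to 0.28). The fibrinogen chains differed by 2.69 (Fgb), 1.57 (Fga) and 2.06 (Fgg) without passing the test (adjusted p 0.069, 0.087 and 0.25). norUDCA-fed A read below the other 2 fed arrays in Fgb (7.05 against 9.21 and 8.27). All 11 coagulation and fibrinolysis genes had a positive difference, and the median change was 0.73. In 6 of the 11 all fed values lay above all sham values, beside 8.96% of all genes. Called were 2 that rose, Plaur and the tissue plasminogen activator Plat (0.93), beside 1.82% of all genes. Plat was not called without norUDCA-fed C (adjusted p = 0.054), and the urokinase gene Plau differed by 0.03 (95% interval -0.27 to 0.33).

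Cell cycle genes rose in 7 of 32 members, beside 1.82% of all genes, none fell, and the median change was 0.34. Mki67, a nuclear protein of cycling cells, read 6.6, 5.91 and 6.41 in sham and 7.69, 7.62 and 7.58 in norUDCA-fed CBDL, a rise of 1.32 (SE 0.17, adjusted p = 0.0051). CBDL read 8.05 to 8.37, above every fed array. Mcm5, a subunit of the helicase that opens replication origins, rose by 0.81 (SE 0.11), with fed values of 6.83, 7.16 and 6.86 on both sides of the CBDL range of 6.94 to 7.13. The calls of Mki67 and Mcm5 held with each array left out, while those of Mcm3 (0.78), the mitotic cyclin Ccnb2 (0.77) and Mcm4 (0.59) were lost without any one of the norUDCA-fed arrays (adjusted p up to 0.087, 0.10 and 0.11). The clamp protein Pcna differed by 0.21 (adjusted p = 0.43) and Ccnd1, a cyclin of early G1, by -0.14 (adjusted p = 0.64). Without any one norUDCA-fed array 2 members of the list were called, and without sham C there were 3. Among 19 immediate early genes, 3 rose, beside 1.82% of all genes: Fosl2 (0.60), Klf6 and Egr2 (0.91). None of them was called without sham C, norUDCA-fed A or norUDCA-fed C (adjusted p up to 0.070 for Fosl2 and Klf6 and 0.17 for Egr2).

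The 15 largest decreases included a predicted gene, a plasma protease inhibitor, a secreted nuclease, steroid and drug metabolising enzymes and organic anion transporters. Dnase1, the nuclease that kidney tubules release into urine, read 12.07, 12.10 and 12.38 in sham and 8.68, 9.31 and 8.68 in norUDCA-fed CBDL. It fell by 3.29 (SE 0.32, 9.79-fold, adjusted p = 0.0012), and the CBDL arrays were lower again at 6.21, 6.20 and 7.49. Gm6300, a predicted gene, had the largest fall, 4.92 (SE 0.62), from 7.28, 10.04 and 10.21 to 4.19, 4.34 and 4.22. Its fed and CBDL values (4.05 to 4.37) all lay below the dim level, and sham A was far below the other 2 sham arrays, so the size is loosely set. Pzp, a broad protease inhibitor of the alpha-macroglobulin family, fell by 3.42 (SE 0.47), from 10.27, 10.70 and 10.84 to 7.31, 7.39 and 6.84. The Fc receptor for IgA and IgM, Fcamr, fell by 2.36, and Hrg, a histidine-rich plasma glycoprotein, differed by -2.79. The calls of Dnase1, Gm6300, Pzp, Fcamr and Hrg held with each array left out, as did those of AA536875 (-2.92), Smcp (-2.70) and Eddm3b (-2.25). Inmt, which methylates tryptamine and other indoles, fell by 2.42 (SE 0.40), and Akr1c14, a hydroxysteroid dehydrogenase, by 2.69 (SE 0.41). Both calls were lost without norUDCA-fed A or C, and that of Inmt also without sham C (adjusted p up to 0.067 and 0.053).

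Proximal tubule transporters were lower in most members by small amounts, and few passed the test. Of 30 measured, 4 fell and 1 rose, beside 1.37% and 1.82% of all genes, and the median change was -0.46. In 21 members all 3 fed values lay below all 3 sham values, beside 13.5% of all genes. Slc34a3, a sodium-phosphate cotransporter of the brush border, read 8.50, 8.93 and 8.65 in sham and 6.85, 7.18 and 6.70 in norUDCA-fed CBDL, a fall of 1.78 (SE 0.23, adjusted p = 0.0047). That call held with each array left out. Slc22a7, an organic anion transporter, fell by 2.44 (SE 0.44), Slco1a1, which carries bile acids and steroid conjugates, by 3.00 (SE 0.51) and Slc17a3, a urate and phosphate transporter, by 1.15 (SE 0.26). Their calls were lost without sham B, sham C, norUDCA-fed A or norUDCA-fed C, and that of Slc17a3 also without sham A, CBDL A or norUDCA-fed B (adjusted p up to 0.094, 0.064 and 0.16). Slc13a1, the sodium-sulfate cotransporter, went the other way, from 12.12, 12.00 and 12.12 to 12.91 or higher on each fed array. Its rise of 0.86 (SE 0.15, adjusted p = 0.019) was not called without any one of the sham or norUDCA-fed arrays (adjusted p up to 0.085). The list had 1 call of a fall without sham B, sham C, norUDCA-fed A or norUDCA-fed C, and 11 when the 6 arrays were fitted alone.

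Other proximal tubule transporters were lower in the fed arrays and not called. Slc34a1, the main phosphate cotransporter, read 13.32, 13.33 and 13.35 in sham and at most 13.13 in fed. The fed arrays were all lower, but the difference of -0.28 (95% interval -0.60 to 0.05) did not pass, beside 12.00 to 12.64 in CBDL. Slc5a2, the glucose transporter SGLT2, differed by -0.67 (adjusted p = 0.25). Of 21 brush border and endocytosis genes 16 had fed values all below sham, beside 13.5% of all genes. Beside 1.37% of all genes, 1 of the 21 fell. This was Ace, angiotensin-converting enzyme, at 11.36, 11.53 and 11.38 against 9.98, 10.41 and 10.24 (-1.21, SE 0.19), and its call was lost without norUDCA-fed A or C (adjusted p up to 0.053). Lrp2, which encodes the endocytic receptor megalin, read 12.75, 12.77 and 12.83 in sham and 12.55, 12.61 and 12.54 in fed (-0.21, 95% interval -0.65 to 0.22), beside 11.12 to 12.07 in CBDL. The microvillus protein Vil1 differed by -0.52 (adjusted p = 0.12) and Amn, a partner of the cubilin receptor, by -0.59 (adjusted p = 0.10).

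Metabolic lists of the tubule had small negative medians, apart from the hypoxia and glycolysis list at 0.025. Their calls are set beside 1.82% of all genes that rose and 1.37% that fell. In the list for amino acid, tryptophan and inositol breakdown, with 25 members and a median of -0.28, 2 fell (Inmt and Sardh) and 2 rose. Those that rose were Gldc, the glycine-cleaving decarboxylase (1.2, SE 0.18), and Kynu, the kynureninase of tryptophan breakdown (1.46, SE 0.21), and both calls held with each array left out. Gldc read 9.09, 9.67 and 9.16 in sham and 10.56, 10.56 and 10.41 in fed. Sardh, sarcosine dehydrogenase, fell by 0.67 (adjusted p = 0.040, up to 0.17 with single arrays left out, lost without any sham array, CBDL A, norUDCA-fed A or C). A second array row of Sardh differed by -0.10. Miox, the inositol oxygenase specific to proximal tubule, differed by -0.36 (95% interval -1.20 to 0.48), and Haao of the kynurenine pathway by -0.84 (adjusted p = 0.21). None of 25 respiratory chain genes was called by limma, 7 were lower at an unadjusted p under 0.05, and the median was -0.20. Over all genes, 3626 of 22180 passed that unadjusted level in either direction. Of 31 genes for fatty acid oxidation and PPARA targets, Cyp4a14 rose and Acads, short-chain acyl-CoA dehydrogenase, fell (-0.70, SE 0.11, adjusted p = 0.012, and 0.067 without norUDCA-fed A). The fatty acid transporter Cd36 differed by -0.94 (adjusted p = 0.071) and medium-chain Acadm by -0.38 (adjusted p = 0.075). Of 12 genes for glucose reabsorption and synthesis only Fbp2 was called, a rise of 0.70 (adjusted p = 0.038) lost without any sham array, norUDCA-fed A or C (adjusted p up to 0.15). The gluconeogenic enzymes Pck1 (-0.10) and G6pc (-0.44, adjusted p = 0.15) were not called. Hk2, the inducible hexokinase, was the 1 call among 20 hypoxia and glycolysis genes. It rose by 0.71 (SE 0.12, adjusted p = 0.012), with loss of the call without sham C, norUDCA-fed A or C (adjusted p up to 0.064).

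**Figure D3:**
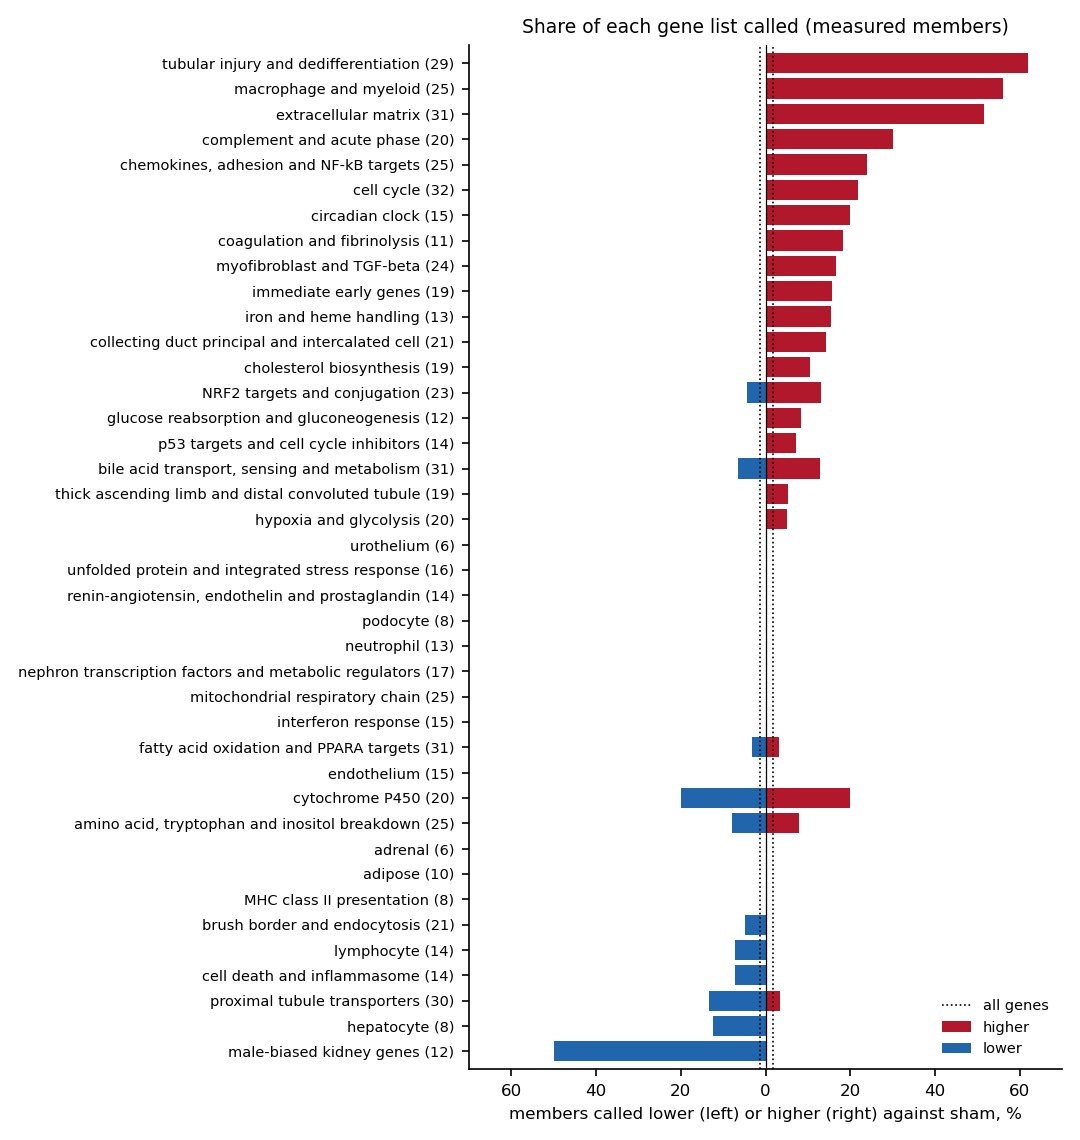
Percent of the measured members of each gene list called higher (red) and lower (blue) in norUDCA-fed CBDL against sham, with dotted lines at the shares of all genes, 1.82% and 1.37%. Tubular injury, macrophage and matrix genes had the highest shares that rose, and male-biased kidney genes the highest share that fell.

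Genes with higher expression in male than in female mouse kidney were lower as a group. Of 12 measured members 6 fell, beside 1.37% of all genes, and none rose. All 12 had a negative difference, and the median change was -1.68, beside 0.66 against CBDL and -2.68 in CBDL against sham. Cyp7b1, an oxysterol hydroxylase, read 10.31, 10.58 and 10.48 in sham and 8.16, 8.23 and 7.98 in norUDCA-fed CBDL, a fall of 2.33 (SE 0.19, adjusted p = 0.00061). Cyp4a12a, which makes the vasoactive lipid 20-HETE, fell by 3.04 (SE 0.31), from 9.11, 9.58 and 9.67 to 6.01, 6.68 and 6.55. The arachidonate epoxygenase Cyp2j13 fell by 1.64 and the glucuronosyltransferases Ugt2b37 and Ugt2b38 by 2.64 and 1.82. These 5 calls held with each array left out, and Slco1a1 is the other member that fell. Kap, the abundant androgen-regulated protein of proximal tubule, read 12.70, 12.70 and 12.86 in sham and 11.50, 12.31 and 12.02 in fed (-0.81, adjusted p = 0.33). The list count was 5 or 6 with each sham or norUDCA-fed array left out. Several members belong to families of close relatives, and the share of their signal that comes from a relative was not tested.

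The labels give no sex, so sex-linked transcripts were set beside these genes, chosen after their values were seen. Y-linked Eif2s3y, Kdm5d and Uty read 7.64, 6.46 and 7.66 on norUDCA-fed A and 8.49 to 9.54, 7.89 to 8.36 and 9.15 to 9.44 on the other 8 arrays. The X-inactivation transcript Xist stayed between 3.66 and 4.39 on all 9 arrays, below the dim level. The list's median difference from the sham mean was -1.58 on norUDCA-fed A, -1.50 on B and -1.64 on C. The part of the Y-linked difference in the male-biased genes was not tested. The adipose gene Car3 also read low on norUDCA-fed A, at 5.59 against at least 10.25 on the other fed arrays and 10.31 to 10.38 in sham, and the adipose list summed to 58.73 to 76.37 in fed against 61.59 to 69.30 in sham. None of the 10 adipose genes was called (2 at an unadjusted p under 0.05, beside 3626 of all 22180 genes). Adipoq, the hormone adiponectin, differed by 0.62 (adjusted p = 0.29).

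**Figure D4:**
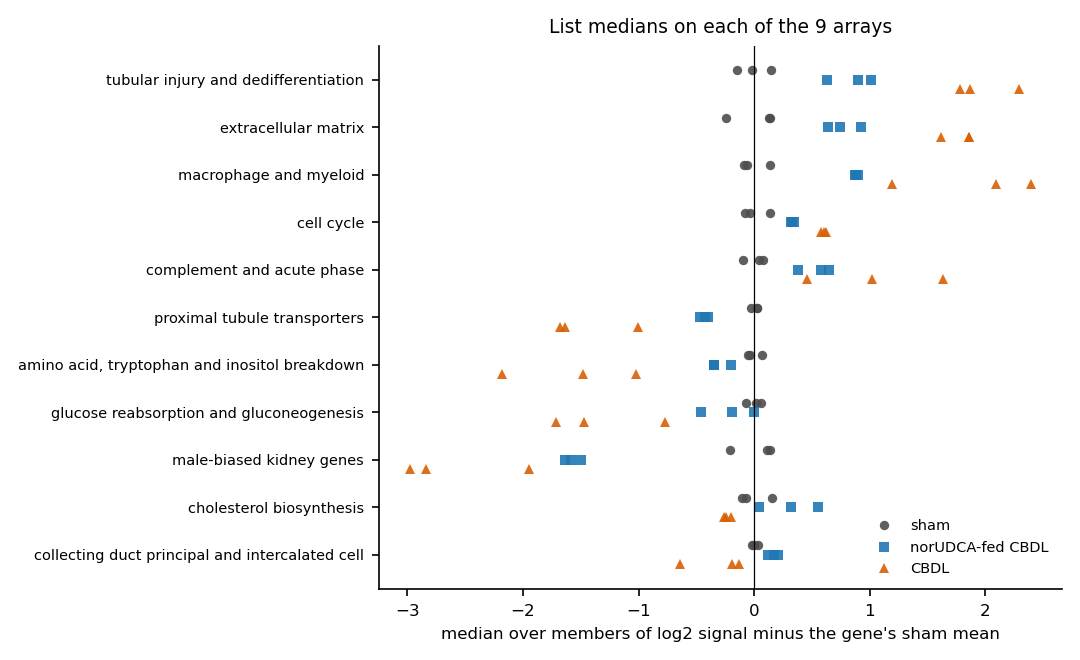
For 11 gene lists, the median over members of an array's signal minus the sham mean (log2), with 1 marker per array in sham (circles), norUDCA-fed CBDL (squares) and CBDL (triangles). In the tubular injury list the fed arrays lie at 0.63 to 1.01 and the CBDL arrays at 1.78 to 2.29, and in the male-biased list the fed arrays lie at -1.64 to -1.50.

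Of 31 bile acid genes 4 rose and 2 fell, beside 1.82% and 1.37% of all genes, with a median of -0.08. The genes that rose were export pumps and a sensor. Abcb1b, a multidrug efflux pump, read 6.07, 5.90 and 6.01 in sham and 7.74, 7.25 and 7.18 in norUDCA-fed CBDL, a rise of 1.4 (SE 0.16, adjusted p = 0.0024) that held with each array left out. The CBDL arrays, at 6.78 to 7.11, were all below the fed ones. Abcc3 and Abcc4, basolateral and apical exporters of organic anions and conjugated bile acids, rose by 1.60 (SE 0.24) and 0.71 (SE 0.14). Abcc3 was not called without norUDCA-fed C (adjusted p = 0.053), and Abcc4 was not called without sham A, sham C, CBDL A or any norUDCA-fed array (adjusted p up to 0.12). Nr1i2, the xenobiotic sensor PXR, rose by 0.78 (SE 0.16) and was named after its values were seen. Cyp7b1 and Slco1a1 were the 2 that fell. Abcc2, the apical conjugate exporter, read 11.09, 11.29 and 11.19 in sham and 11.21, 11.32 and 11.26 in fed (0.07, 95% interval -0.26 to 0.41), beside 10.13 to 10.75 in CBDL. Slc10a2, the apical sodium-dependent bile acid carrier, read 9.49, 9.56 and 9.37 in sham and 9.03, 9.01 and 9.03 in fed, all lower but not called (-0.45, adjusted p = 0.49). The basolateral exporter subunit Slc51a read 9.10, 9.48 and 9.27 in sham and 9.71, 10.47 and 9.87 in fed, all higher but not called (0.73, adjusted p = 0.48), and the bile acid receptor gene Nr1h4 differed by -0.28 (adjusted p = 0.50). The number of members that rose was 1 without norUDCA-fed C, and 2 without sham A, sham C or norUDCA-fed A.

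Detoxification genes went in both directions, and their calls are set beside 1.82% of all genes that rose and 1.37% that fell. Of 23 NRF2 targets and conjugation genes 3 rose and 1 fell, with a median of -0.03. Gsta4, the glutathione transferase for lipid peroxidation products, read 9.02, 8.63 and 8.87 in sham and 10.46, 10.06 and 10.27 in norUDCA-fed CBDL, a rise of 1.42 (SE 0.15, adjusted p = 0.0015). The metal-binding metallothioneins rose less, Mt2 by 0.86 (SE 0.12) and Mt1 by 0.51 (SE 0.09), and Ces1g, a carboxylesterase, fell by 1.52 (SE 0.24). The calls of Gsta4 and Mt2 held with each array left out. Mt1 lost its call without sham A, sham C, norUDCA-fed A or C (adjusted p up to 0.097), and Ces1g without norUDCA-fed C (adjusted p = 0.051). Gclc, the limiting enzyme of glutathione synthesis, differed by -0.09 (95% interval -0.48 to 0.29), and the heme oxygenase Hmox1 by -0.86 (adjusted p = 0.17). Of 20 cytochrome P450 genes 4 rose and 4 fell, and the median change was -0.35, with 7 positive differences. In 9 of the 20 all fed values lay below all sham values, and in 5 they lay above. The shares of all genes were 13.5% below and 8.96% above. Besides Cyp4a14, those that rose were Cyp1b1, a hydroxylase of estrogens and aryl hydrocarbons (1.0, SE 0.12, held with each array left out), Cyp26b1, which degrades retinoic acid, and Cyp27b1, which makes active vitamin D.

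Of the 22180 genes, 9 were called higher in norUDCA-fed CBDL than in both sham and CBDL, and none was lower than both. Both calls use the same 3 fed arrays, so a fed mean that is high by chance counts in both. The 9 genes are therefore only listed. Besides Cyp4a14 these were Kynu, Insig1, Cyp27b1, Cyp26b1, Rdh16f2, Gm10639, Cox6b2 and Slc4a9. Insig1, which holds the sterol-sensing complex in the endoplasmic reticulum, read 9.52, 9.54 and 8.90 in sham, 9.08, 9.25 and 9.25 in CBDL and 10.13, 10.49 and 10.61 in norUDCA-fed CBDL. The fed arrays were above all others, by 1.09 (SE 0.18, adjusted p = 0.014) over sham and 1.22 (SE 0.18, adjusted p = 0.0088) over CBDL. Cyp27b1 read 7.25, 7.93 and 7.12 in sham, 7.79, 7.51 and 8.28 in CBDL and 8.79, 8.83 and 9.35 in fed. Cyp26b1 read 6.39, 5.34 and 5.79 in sham, 6.18, 6.46 and 6.61 in CBDL, and 7.26, 7.43 and 7.35 in fed. Rdh16f2, of the retinol dehydrogenase family, read 9.36 to 10.03 in sham, 8.45 to 9.97 in CBDL and 10.94 to 11.20 in fed. In each of these 3 genes the fed arrays again lay above all 6 others. The part against sham follows from the selection, since no called gene overlapped with sham. Slc4a9, an anion exchanger of intercalated cells, was 0.57 above sham and 0.55 above CBDL (SE 0.10 each). Gm10639, a predicted gene, was 1.37 above sham and 1.55 above CBDL (SE 0.27 each), and Cox6b2, a cytochrome oxidase subunit isoform best known from testis, 0.66 and 0.69 (SE 0.13 each). Of the 9 genes, Cyp4a14 and Kynu kept their calls against sham with every array left out. The others lost them without 1 or more arrays, norUDCA-fed C in all but Gm10639 and norUDCA-fed B in all but Cyp27b1 and Cyp26b1 (adjusted p up to 0.052 for Cyp26b1 and 0.16 for Rdh16f2). Cyp27b1 and Slc4a9 also lost it without sham C, and Gm10639, Cox6b2 and Rdh16f2 without any of the sham arrays. Against CBDL, Insig1 alone of the 9 kept its call with every array left out (adjusted p up to 0.049), and Cyp4a14 lost it without CBDL A or norUDCA-fed A (adjusted p up to 0.057).

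**Figure D5:**
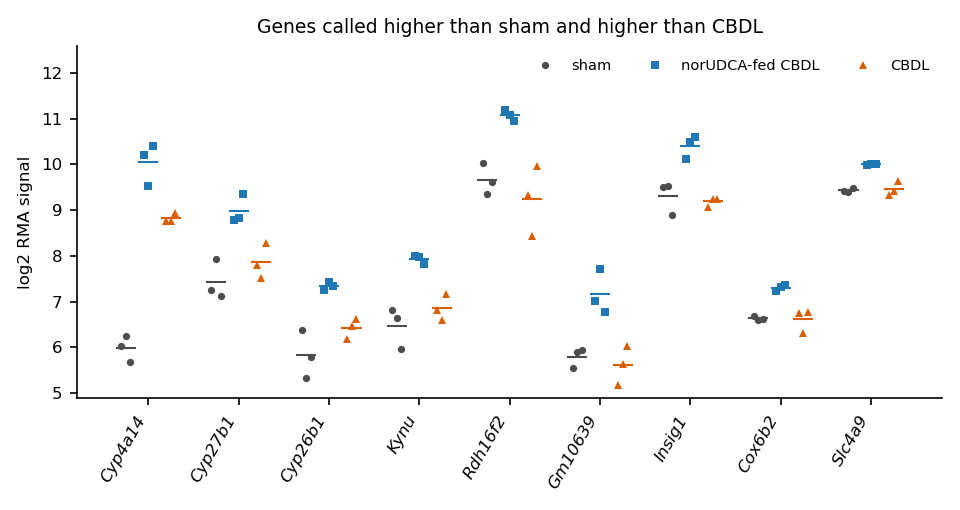
Signal (log2 RMA) of each array for the 9 genes called higher in norUDCA-fed CBDL (squares) than in both sham (circles) and CBDL (triangles), with bars at group means. For all 9 genes the squares lie above the circles, as they do for every called gene that rose. In Cyp4a14 the squares read 9.53 to 10.41 against at most 6.24 in sham.

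In the 19 measured genes of cholesterol synthesis the median change was 0.24 against sham and 0.64 against CBDL. Beside 1.82% of all genes, 2 of the 19 rose. These were Insig1 and Fdft1, squalene synthase, at 9.16, 9.20 and 8.80 in sham and 9.68, 10.15 and 9.95 in norUDCA-fed CBDL (0.88, SE 0.15, adjusted p = 0.014). The call of Fdft1 was lost without sham C or norUDCA-fed C and that of Insig1 without norUDCA-fed B or C (adjusted p up to 0.074 and 0.077). Msmo1, a sterol demethylating enzyme, differed by 0.80 (adjusted p = 0.066), while Hmgcs1, which makes the HMG-CoA used for sterols, differed by -0.11 (95% interval -0.47 to 0.25).

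Distal nephron genes were compared in the same way, beside 1.82% of all genes that rose and 1.37% that fell. Of 19 genes marking the thick ascending limb or the distal convoluted tubule, 1 was called, the calcium channel Trpv5. It rose by 0.95 (SE 0.20, adjusted p = 0.032) and lost its call without any sham array, norUDCA-fed A or C (adjusted p up to 0.14). Umod, the most abundant urinary protein of healthy kidney, read 12.47, 12.55 and 12.51 in sham and 12.76, 12.87 and 12.72 in fed (0.27, adjusted p = 0.21). Egf, a growth factor of the distal tubule, read 12.32, 11.99 and 12.31 in sham and 11.61, 12.02 and 11.61 in fed, with overlapping values (-0.47, adjusted p = 0.58) and 9.29 to 11.01 in CBDL. Slc12a3, the thiazide-sensitive cotransporter, differed by 0.07 (95% interval -0.24 to 0.37). Of 21 collecting duct genes, 10 had all 3 fed values above all 3 sham values, beside 8.96% of all genes. At an unadjusted p under 0.05, 7 of the 21 were higher, and the list's median change was 0.19. Called were 3 that rose: Slc4a9, the proton pump subunit Atp6v0d2 (0.65, adjusted p = 0.019) and the sodium channel subunit Scnn1a (0.57, adjusted p = 0.040). None of these was called without sham A, sham C, norUDCA-fed A or norUDCA-fed B (adjusted p up to 0.082 for Slc4a9, 0.091 for Atp6v0d2 and 0.17 for Scnn1a). Aqp2, the vasopressin-regulated water channel, read 9.77, 9.89 and 8.98 in sham and 9.66, 9.85 and 10.12 in fed (0.33, 95% interval -0.43 to 1.10). limma called none of 8 podocyte genes (1 at an unadjusted p under 0.05) and none of 15 endothelial genes (2 at that level). It called none of 14 genes of the renin-angiotensin, endothelin and prostaglandin systems (4 at that level). Over all genes, 3626 of 22180 had an unadjusted p under 0.05.

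Among 15 circadian clock genes 3 rose, Per1, Bhlhe40 and Cry2, beside 1.82% of all genes, with a list median of 0.21. Per1, a repressor of the clock loop that is driven through E-box elements, is shown with its RefSeq promoter window (GRCm38.p6, chr11:69098699-69098948, plus strand, 250 bases upstream of the start, E-box letters CACGTG in capitals).
Per1: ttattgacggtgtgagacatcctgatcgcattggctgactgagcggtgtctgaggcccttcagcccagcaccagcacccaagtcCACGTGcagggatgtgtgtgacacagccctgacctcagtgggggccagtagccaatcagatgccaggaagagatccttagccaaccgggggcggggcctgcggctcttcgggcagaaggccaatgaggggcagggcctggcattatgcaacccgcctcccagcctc

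That window held 1 match, and a second Per1 start in the table had none in its window. Of all 32851 windows, 1978 (6.02%) held the letters, which read the same on both strands, and the window of Cry2 held none. Per1 read 7.54, 7.71 and 8.04 in sham and 9.50, 9.15 and 9.91 in norUDCA-fed CBDL, a rise of 1.76 (SE 0.21, adjusted p = 0.0031) that held with each array left out. The CBDL arrays, at 9.20 to 9.66, overlapped the fed ones (difference 0.06, SE 0.21). Bhlhe40, a repressor that binds E-boxes, rose by 0.78 (SE 0.13), and was not called without sham C, norUDCA-fed A or C (adjusted p up to 0.070). Cry2 rose by 0.61, and its call was lost without any sham or norUDCA-fed array or CBDL C (adjusted p up to 0.17). Nr1d1, which encodes REV-ERB alpha, read 10.10 to 10.49 in sham and 10.28 to 10.33 in fed (0.03, 95% interval -0.39 to 0.44). The labels do not give the hour at which kidneys were taken, and its part in the clock genes was not tested.

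Counts of the stress and cell death lists are set beside 1.82% of all genes that rose and 1.37% that fell. limma called none of 16 genes of the unfolded protein response and the integrated stress response (2 at an unadjusted p under 0.05). Over all genes, 3626 of 22180 reached that unadjusted level. Of 14 cell death and inflammasome genes 1 was called, the proapoptotic Bid, which fell by 0.55 (adjusted p = 0.025) and lost its call without any sham or norUDCA-fed array (adjusted p up to 0.095). At an unadjusted p under 0.05, 3 of the 14 cell death and inflammasome genes were higher and 1 was lower. Cdkn1a was the 1 of 14 p53 targets that rose, and Lcn2 and Cp were the 2 of 13 iron and heme genes. Of 8 hepatocyte markers 1 was called, Alb, which fell by 0.91 (SE 0.16, adjusted p = 0.015), from 6.82, 7.17 and 7.18 to 5.92, 6.18 and 6.33. Its call was lost without sham B, sham C or norUDCA-fed A (adjusted p up to 0.071). None of 17 nephron transcription factors and metabolic regulators, 6 urothelial or 6 adrenal genes was called by limma (4, 0 and 0 of them at an unadjusted p under 0.05), and 5 of the 6 adrenal genes were dim in all groups.

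The genes that differed most reliably from CBDL are given last with their distance from sham, since a gene can leave the CBDL level and still not reach that of sham. Rgs16, a regulator of G protein signalling, read 6.03, 6.01 and 5.68 in sham, 7.36, 7.30 and 7.36 in norUDCA-fed CBDL and 9.81, 9.19 and 8.95 in CBDL. It was 1.43 above sham (SE 0.20, adjusted p = 0.0064, held with each array left out) and -1.98 from CBDL (SE 0.20). Adamts1, a secreted metalloproteinase, read 8.90, 9.06 and 8.79 in sham, 9.12, 9.25 and 9.15 in fed and 10.10 to 10.34 in CBDL. It was -1.08 from CBDL (SE 0.11), and its distance from sham was 0.26 (95% interval 0.01 to 0.50, adjusted p = 0.29). Nlrp6, a cytoplasmic sensor of the inflammasome family, read 9.42, 9.54 and 9.31 in sham, 8.84, 9.20 and 8.88 in fed and 6.97 to 7.67 in CBDL. All 3 fed values were below sham, but the difference of -0.45 did not pass (adjusted p = 0.24). Etnppl, which breaks down phosphoethanolamine, read 7.97, 8.26 and 8.24 in sham, 8.62, 8.66 and 8.39 in fed and 5.59 to 6.83 in CBDL. Its fed values lay above sham, with a difference of 0.40 (adjusted p = 0.49) and of 2.46 from CBDL (SE 0.27). Spatc1l was called higher than CBDL (adjusted p = 0.0066), by 1.13 to 1.30 with single arrays left out, and that call held. It was also called lower than sham (adjusted p = 0.026), by 0.54 to 0.65 in those fits. The call against sham was lost without any sham array, norUDCA-fed A or C (adjusted p up to 0.12). Its array rows differed from sham by -0.58 and -0.32.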

How the data were processed

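Kidney total RNA (TRIzol extraction, WT PLUS labelling, per the labels' protocols) was hybridised to whole-transcript arrays. The deposited values are log2 signals per array row, which the authors made by robust multiarray averaging (RMA) with Partek 6.6 (submitters' processing notes). The array model and genome build are not given in the sources used here. The value table has 41345 rows: 23521 with 1 gene symbol in GEO's platform annotation, 1814 with several and 16010 with none. The brightest row of a gene over the 9 arrays was used, which left 1341 rows out and 22180 genes, 21994 of them found in the RefSeq gene table. Dim genes were kept.

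Values were used without further scaling. limma 3.58.1 in R 4.3.3 fitted 1 mean per group over all 9 arrays, with a moderated variance (6 residual and 3.77 prior degrees of freedom), and p-values were adjusted by Benjamini-Hochberg over all genes. The code was tested on simulated data with planted changes. Arrays give no counts, so the 3 arrays of a group limit the precision. Array medians ran from 5.697 to 5.793.

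The gene lists (41 lists, 731 of 808 entries measured) and the members were chosen with earlier results of these data known, so a list's count is described beside all genes and carries no test of its own. Genes named are the 15 largest changes in each direction, the 5 members of a list with the lowest p and its 2 brightest uncalled ones, the 10 genes with the lowest p against CBDL, those called in the same direction against sham and CBDL, and a set of known injury, transport and bile acid genes. Named outside this rule, after values were seen, were Nr1i2, Cx3cl1, Xist and the Y-linked genes. The erythroid list had no measured member. Spp1, C3, Gdf15, Cyp4a10 and Slc51b lack a single-symbol row and were not analysed here. Promoter windows are from RefSeq (GRCm38.p6), 250 bases upstream of each annotated start. Alternatives were an intensity trend, array weights, the 6 arrays alone, no dim genes, mean rows, renewed quantile normalization, median centring, a 2-fold threshold and each array left out.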

Additional observations from a re-analysis of the deposited data

Results flagged for a closer look

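Among the array rows that carry no single gene symbol, and so belong to no gene described here, 5 were called in norUDCA-fed CBDL against sham by limma in a fit over those rows. Of 16010 rows with no symbol 4 were higher, and of 1814 rows with several symbols 1 was lower. This signal lies in rows that the comparison of genes did not use, which is why it is listed. The rows were not named or placed in the genome here.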

How the results depend on the processing

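Counts of called genes moved with the processing. Against sham, no named gene changed direction where it was called in the main fit, the alternative or both. Direction was not compared where a gene was uncalled in both. Of the values of named genes under the alternatives, 4188 kept their side of the threshold, 242 lost a call and 129 gained one. Against the 403 genes higher and 303 lower than sham, array weights gave 939 and 699, a threshold of at least 2-fold 121 and 73, leaving out the dimmest 33.3% of genes 458 lower, and centring each array on its median 506 lower. With single arrays left out the counts ran from 103 (without norUDCA-fed C) to 458 (without CBDL B) higher, and from 53 to 364 lower for the same arrays. Against the 800 genes higher and 709 lower than CBDL, at least 2-fold gave 239 and 160, median centring 1224 higher, and the 6 arrays alone 404 higher. With single arrays left out those counts ran from 136 to 1152 higher and from 142 to 891 lower, the lowest without norUDCA-fed B and the highest without CBDL C. The causes were not tested, other than that fewer arrays or a stricter threshold were used. Of 108 named genes called against sham, 54 kept the call with each of the 9 arrays left out. No paired analysis was possible because replicate numbers are not shared between groups. Genes near the dim level, 28 of those higher with a dim sham mean and 28 of those lower with a dim fed mean, have loosely set sizes.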
